A study of Mus musculus with 2 samples.

Results

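The actin genes Actb, Actg1, Acta1, Acta2 and Actc1 were chosen by gene symbol, as the 2 cytoplasmic and 3 of the muscle actins of the mouse. All 5 had reads in both libraries, out of 14198 annotated genes with a read in either. The study sequenced long reads of total RNA from C2C12, a mouse myoblast line obtained from ATCC that goes back to crushed thigh muscle of C3H mice. There was 1 group of 2 libraries, given as biological replicates 1 and 2, and no treatment, genotype or second cell type. C2C12 cells grow as single-nucleated myoblasts and fuse into myotubes when serum is withdrawn, and the labels do not say in which state these cells were taken. Each comparison below therefore sets one library against the other and covers counting error only. The labels do not say whether the 2 replicates came from separate cultures.

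Actin monomers polymerise into filaments that carry cell shape, migration and, with myosin, contraction. Beta-actin (Actb) and gamma-actin (Actg1) are made in nearly every cell. Skeletal (Acta1), smooth-muscle (Acta2) and cardiac (Actc1) alpha-actin build the thin filaments of their muscles. Cultured skeletal myoblasts are known to switch from cytoplasmic to muscle actins as they differentiate, with cardiac and smooth-muscle alpha-actin made alongside the skeletal form.

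The 5 genes lie on 5 chromosomes and all read from the minus strand. On mm10 with GENCODE M21, Actb-201 spans chr5:142903115-142906754 in 6 exons and Actg1-202 spans chr11:120345690-120348542 in 6 exons. Acta1-201 spans chr8:123891769-123894751 in 7 exons, Acta2-201 spans chr19:34241090-34255590 in 9 exons and Actc1-201 spans chr2:114047282-114052887 in 7 exons. The coding part is 1128 bases in both cytoplasmic genes and 1134 bases in the 3 muscle genes. The untranslated ends differ more, with a 3′ UTR of 683 bases in Actb-201, 700 in Actg1-202, 577 in Acta2-201, 240 in Acta1-201 and 184 in Actc1-201. Actb and Actg1 share their coding exon lengths of 123, 240, 439, 182 and 144 bases. Acta1 and Actc1 share theirs of 129, 325, 162, 192, 182 and 144 bases, and in Acta2 the exon of 325 bases is replaced by exons of 129, 111 and 85 bases.

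The first 60 coding bases of the main transcripts are shown because they hold the part in which the proteins differ most, at the amino terminus. Within the coding part, reads can be told apart only by differences such as these, since 813 of the 1134 coding bases of Acta1 (71.7%) were identical in all 5 genes. Sequences are from the GENCODE M21 transcripts, 5′ to 3′ from the start codon. Capitals mark bases that are not the same in all 5 genes at that aligned position.
Actb: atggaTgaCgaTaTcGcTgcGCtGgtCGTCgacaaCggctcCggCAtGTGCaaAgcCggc
Actg1: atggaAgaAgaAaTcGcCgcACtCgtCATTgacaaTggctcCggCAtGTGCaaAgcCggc
Acta1: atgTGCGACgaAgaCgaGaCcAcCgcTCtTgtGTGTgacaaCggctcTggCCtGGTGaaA
Acta2: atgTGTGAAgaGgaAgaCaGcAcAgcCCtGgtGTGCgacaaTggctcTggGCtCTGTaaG
Actc1: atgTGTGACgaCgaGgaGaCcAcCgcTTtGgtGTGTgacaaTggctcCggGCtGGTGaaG
In this stretch 37 bases of each cytoplasmic gene and 32 of each muscle gene were shared by all 5. Over the whole coding part Actb and Actg1 were the closest pair, at 88.7% identity. Identity among the 3 muscle genes lay between 82.5% (Acta2 and Actc1) and 86.2% (Acta1 and Actc1).

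The deposited tables held 791850 reads in replicate 1 and 735077 in replicate 2, of which 773408 and 722647 lay on annotated genes. Levels are given in CPM, the usual scaling of a count to the total of annotated-gene reads, with no division by length, since a long read stands for 1 cDNA molecule. A count of 0 allows up to 3 reads, which is 3.88 CPM of replicate 1 and 4.15 CPM of replicate 2. All 5 myoblast markers and all 6 markers of differentiating skeletal muscle had reads in both libraries, with summed levels of 2415 and 2874 CPM and of 1146 and 1118 CPM. Des and Chrna1 (640 and 740 CPM) made most of the first sums. Myog (566 and 628 CPM) and Mylpf (322 and 264 CPM) made most of the second, with Ckm at 51.7 and 38.7 CPM and Myh3 and Tnnt3 lower still. The sums were not set against each other, and the state of the cells was not tested. In the test between libraries described below, Myf5 was higher in replicate 1 (278 and 83.0 CPM, adjusted p = 1.05e-16, exact binomial). Of the Myf5 reads, 76 of 215 in replicate 1 and 36 of 60 in replicate 2 were on complete models, a class of model described below. Des was lower in replicate 1 (1139 and 1643 CPM, adjusted p = 5.84e-14, exact binomial), and the other markers of both lists did not pass. Over all genes tested 2.6% were called higher and 1.39% lower in replicate 1. Of 8 smooth muscle markers, 6 had reads in both libraries, with summed levels of 447 and 415 CPM. The actin gene Actg2 made 237 and 219 CPM of these sums, and Tagln 102 and 107 CPM. The smooth muscle myosin heavy chain Myh11 had 0 reads in either library. Of 6 heart muscle markers 1 had reads in both (2.59 and 1.38 CPM summed), and Myh6, Nppa and Myl7 had none. Fibroblast markers summed to 45.3 and 41.5 CPM, endothelial markers to 0 and 1.38 CPM and blood markers to 3.88 and 2.77 CPM. The part of any other cell type in the actin levels was not tested. In bulk RNA, fewer cells of a type and less RNA per cell cannot be told apart.

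Each read is assigned to a transcript model of a given class. Known models follow an annotated transcript, NIC models join annotated splice sites in a new way, and NNC models use at least 1 splice site that is not annotated. These 3 classes are called complete here. ISM models carry part of an annotated chain of introns, and Genomic models overlap a gene without following its splicing. The last 2 are called other models. Classes are as deposited, and some actin NIC models had a splice site absent from GENCODE M21. An Acta2 NIC model with 10 reads in replicate 1, for example, had a site moved by 4 bases.

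Over all models Actb had 6565 and 3419 reads in replicates 1 and 2, Actg1 had 3763 and 4175, Acta2 had 2139 and 2104, Acta1 had 431 and 446, and Actc1 had 207 and 203. These are levels of 6609.8 ± 2657 CPM for Actb, 5321 ± 645 for Actg1, 2839 ± 103 for Acta2, 587 ± 42.4 for Acta1 and 274 ± 9.38 for Actc1 (SD, n = 2). Actb stood above Actg1 in replicate 1, at 8488 against 4865 CPM, and below it in replicate 2, at 4731 against 5777 CPM, so their order is not fixed by these libraries. The values of Acta2, Acta1 and Actc1 did not overlap those of any other member. Actb ranked 3, Actg1 5, Acta2 22, Acta1 269 and Actc1 692 by mean level among the 14198 genes.

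On complete models the order was another. Actg1 had 3060 and 3821 such reads, or 4622 ± 941 CPM, and came first in both libraries. Acta2 followed with 1781 and 1871 reads (2446 ± 202 CPM). Actb came next with 636 and 570 reads, or 806 ± 23.7 CPM, and ranked 156 among all genes. Acta1 had 371 and 407 complete-model reads (521 ± 59.1 CPM) and Actc1 had 175 and 179 (237 ± 15.2 CPM). No 2 members overlapped in their complete-model levels (SD, n = 2 throughout). Thus the transcript of smooth-muscle alpha-actin had 3.04 times the complete-model level of beta-actin, with the ratio at 2.80 in replicate 1 and 3.28 in replicate 2.

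**Figure D1:**
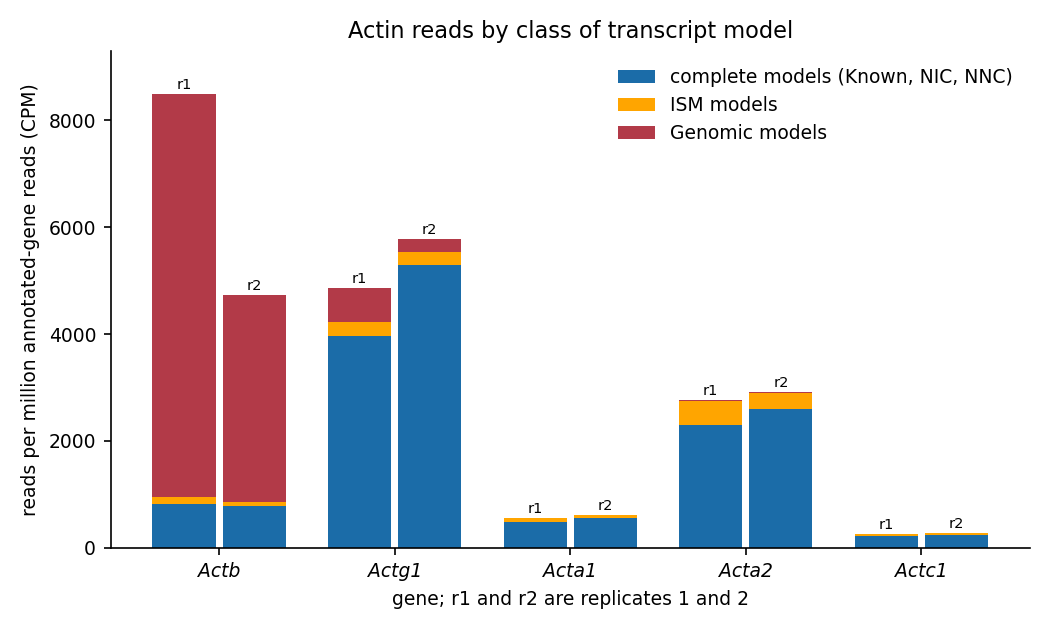
Level of each actin gene in CPM of annotated-gene reads (vertical axis, linear), with 1 bar per library (r1 and r2, replicates 1 and 2), split by class of model. Genomic models make most of the Actb bars, and complete models make most of the bars of the other 4 genes.

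The reads of Actb lay mostly on 1 model. This Genomic model is a single exon of 540 bases at chr5:142903115-142903654, in the last exon and wholly inside the 3′ UTR, since the coding part ends at 142903798. It held 5822 reads in replicate 1 and 2802 in replicate 2, or 88.7% (Wilson 95% interval 87.9 to 89.4) and 82.0% (80.6 to 83.2) of all Actb reads. It was the largest of the 8264 and 6437 Genomic models of the libraries, and the second largest held 496 and 425 reads. Its 2 boundaries are annotated ones, the 3′ end of Actb-201 and the 5′ end of Actb-209, a short processed transcript at chr5:142903234-142903654. The coordinates belong to the model, and where the individual reads began and ended was not analysed here.

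Actg1 had a like model of 344 bases at chr11:120345690-120346033, also a single exon inside the 3′ UTR. It held 496 reads in replicate 1 and 175 in replicate 2, or 13.2% (12.1 to 14.3) and 4.19% (3.62 to 4.84) of the gene's reads, and was the second largest Genomic model of replicate 1. Its boundaries are the 3′ end of Actg1-202 and that of Actg1-201. Acta2 had 9 and 11 Genomic reads. Acta1 and Actc1 had none, and neither did most of the 655 genes with at least 200 reads in each library, whose median Genomic share was 0 in both. By Genomic share Actb ranked 2 of those 655 genes in each library, and Actg1 ranked 15 and 35.

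**Figure D2:**
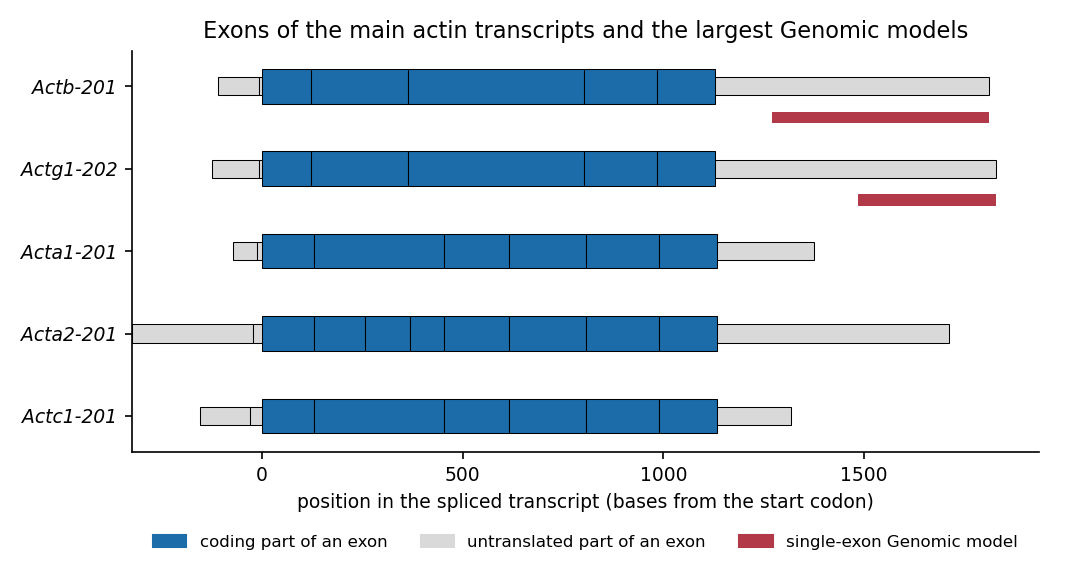
Spliced main transcripts of the 5 genes, drawn to scale from the start codon (horizontal axis, bases), with exon borders as vertical lines, coding parts tall and blue and untranslated parts low and grey. The red bars are the single-exon Genomic models of 540 bases in Actb and 344 bases in Actg1, which both end at the 3′ end and stop short of the coding part.

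Models that carry the whole coding part with its annotated introns held 646 of 6565 Actb reads in replicate 1 and 567 of 3419 in replicate 2, or 9.84% and 16.6%. In Actg1 they held 80.7% and 90.5%, in Acta2 87.2% and 93.3%, in Acta1 89.1% and 95.3%, and in Actc1 86.5% and 93.6%. Replicate 1 was the lower in all 5. Along the main transcript of Actb, models covered the first exon with 9.63% and 16.5% of the gene's reads and the fifth exon with 11.3% and 18.0%, and the step came inside the last exon. In the 3 muscle genes the cover of the first exon was already 83.2% to 86.3% in replicate 1 and 88.7% to 91.5% in replicate 2, and it went up by small steps as far as the next to last exon. In the last exon it fell to 94.8% in replicate 1 and 97.7% in replicate 2 of Acta2. Acta2 models ended at the annotated 3′ end of Acta2-201 for 1949 of 2139 reads in replicate 1 and 1965 of 2104 in replicate 2. Of these reads, 1752 and 1845 were on Acta2-201 itself, which carries that end as annotated. A further 181 reads in replicate 1 were on models that end 407 bases upstream, and 109 in replicate 2 on models that end 225 bases upstream. Within each library those models, 22 in replicate 1 and 24 in replicate 2, all have the same end coordinate. The ends belong to the models, and where the individual reads of Acta2 ended was not analysed here.

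**Figure D3:**
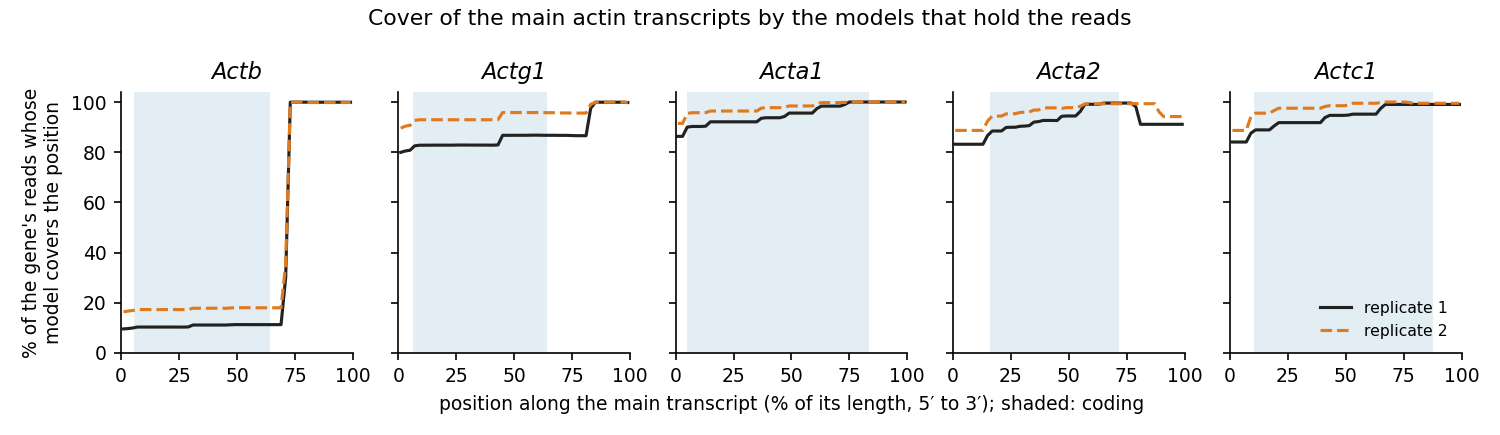
Share of a gene's reads whose model covers each position (vertical axis, %) along the main transcript from 5′ to 3′ (horizontal axis, % of its length), for replicate 1 (solid) and replicate 2 (dashed), with the coding part shaded. Actb stays under 20% until the 3′ UTR, where it steps to about all reads, and Actg1 shows a smaller step at the same end.

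The share of reads on complete models was 9.69% (8.996 to 10.4) in replicate 1 and 16.7% (15.5 to 18.0) in replicate 2 for Actb, a difference of -6.98 percentage points. It was 81.3% and 91.5% for Actg1, 83.3% and 88.9% for Acta2, 86.1% and 91.3% for Acta1, and 84.5% and 88.2% for Actc1. Replicate 1 was thus lower for every member, with the difference widest in Actg1 (-10.2 points) and narrowest in Actc1 (-3.64 points). With Fisher's exact test (two-sided, Benjamini-Hochberg adjusted over the 4960 genes with 20 reads or more in each library, threshold 0.05) the share differed for Actg1 (adjusted p = 2.61e-37), Actb (2.29e-20) and Acta2 (1.37e-05). It did not pass for Acta1 (adjusted p = 0.210) or Actc1 (0.804). Over all genes tested 4.05% were called, 3.95% lower in replicate 1 and 0.101% higher. Over those genes the median share was 88.5% in replicate 1 and 92.6% in replicate 2, and the median difference was -2.99 points, so the direction is that of the libraries as a whole. Of the 4960 genes, 113 in replicate 1 and 141 in replicate 2 had a lower share than Actb.

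**Figure D4:**
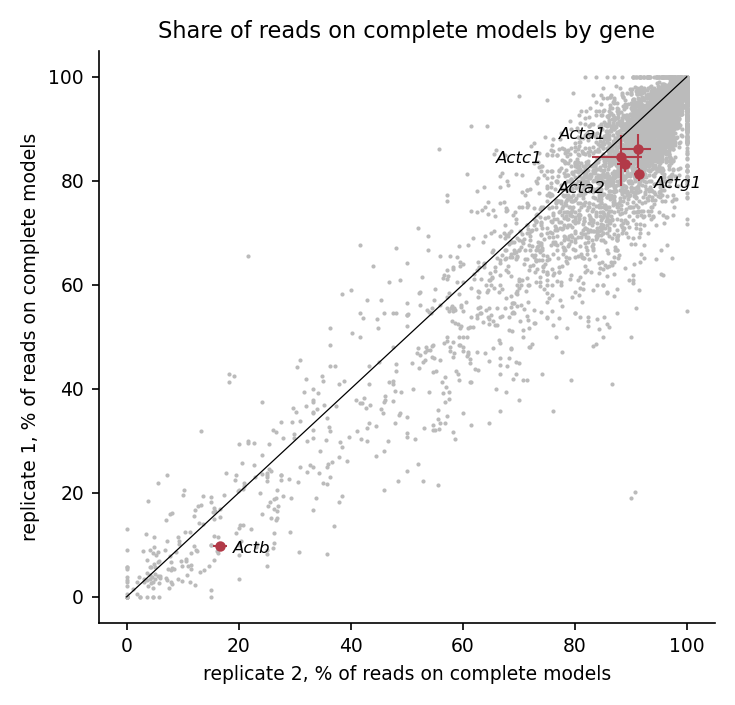
Share of reads on complete models in replicate 1 (vertical axis, %) against replicate 2 (horizontal axis, %), 1 grey point per annotated gene with at least 20 reads in each library and red points with Wilson 95% intervals for the actin genes. All 5 actin genes lie below the line of equal shares, as do most genes, and Actb lies apart from the other 4.

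For differences in level between the libraries, reads were set against the annotated-gene totals in an exact binomial test (two-sided), adjusted by Benjamini-Hochberg over the 8940 genes with at least 10 reads. Log2 ratios are replicate 1 over replicate 2. Over all models Actb was higher in replicate 1, with a log2 ratio of 0.84 (SE 0.030, adjusted p = 2.34e-173, exact binomial). Actg1 was lower in replicate 1, with a log2 ratio of -0.25 (SE 0.032, adjusted p = 6.87e-12, exact binomial). The log2 ratios of the muscle genes were small and did not pass, at -0.07 for Acta2, -0.15 for Acta1 and -0.07 for Actc1 (adjusted p = 0.483, 0.555 and 0.928, exact binomial). Over all genes tested 3.98% were called, 2.6% higher in replicate 1 and 1.39% higher in replicate 2. Genes with many reads were called far more often, 96 of the 217 with at least 1000 reads (44.2%), with a median size of the log2 ratio of 0.19. None of those 217 genes had a larger log2 ratio than Actb, and 75 had one larger in size than Actg1. This place of Actb holds for genes with that many reads. Cbx3, with fewer reads, had a log2 ratio of 0.98.

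On complete models the difference in Actb was not found. Its log2 ratio there was 0.13 (SE 0.083, adjusted p = 0.511, exact binomial), and 123 of the 194 genes with at least 1000 complete-model reads had a larger one in size. Actg1 was lower in replicate 1 on complete models too, with a log2 ratio of -0.35 (SE 0.035, adjusted p = 3.98e-20, exact binomial). Acta2 (-0.10), Acta1 (-0.16) and Actc1 (-0.06) did not pass (adjusted p = 0.335, 0.541 and 0.965, exact binomial). Here 4.36% of 7436 genes were called, 2.85% higher in replicate 1 and 1.51% higher in replicate 2. On other models, given the totals of such reads, both cytoplasmic genes were higher in replicate 1. Actb had 5929 and 2849 such reads, with a log2 ratio of 0.50 (adjusted p = 5.84e-51, exact binomial). Actg1 had 703 and 354, with a log2 ratio of 0.43 (adjusted p = 0.000428, exact binomial). Acta2 with 358 and 233 reads, Acta1 with 60 and 39 and Actc1 with 32 and 24 did not pass. Of 4307 genes tested on other models 2.02% were called, 1.09% higher in replicate 1 and 0.929% higher in replicate 2.

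Muscle actins against cytoplasmic actins give a share that depends on which models are counted. Over all models Acta1, Acta2 and Actc1 together held 2777 of 13105 actin reads in replicate 1 and 2753 of 10347 in replicate 2. That is 21.2% (20.5 to 21.9) and 26.6% (25.8 to 27.5), and replicate 1 was lower (adjusted p over 3 tests = 1.17e-21, Fisher's exact test, two-sided). On complete models they held 2327 of 6023 and 2457 of 6848 reads, or 38.6% (37.4 to 39.9) and 35.9% (34.8 to 37.0), and here replicate 1 was higher (adjusted p = 0.0013, Fisher's exact test). On other models the share was 6.35% and 8.46% (adjusted p = 0.000133, Fisher's exact test). The muscle share thus averaged 23.9% ± 3.83 over all models and 37.3% ± 1.95 on complete models (SD, n = 2), and the library with the higher share was not the same. Most muscle actin reads were those of Acta2. Without Acta2 the muscle share was 5.82% and 7.87% over all models (unadjusted p = 2.07e-08, Fisher's exact test). On complete models it was then 12.9% and 11.8%, and the difference did not pass (unadjusted p = 0.112, Fisher's exact test).

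**Figure D5:**
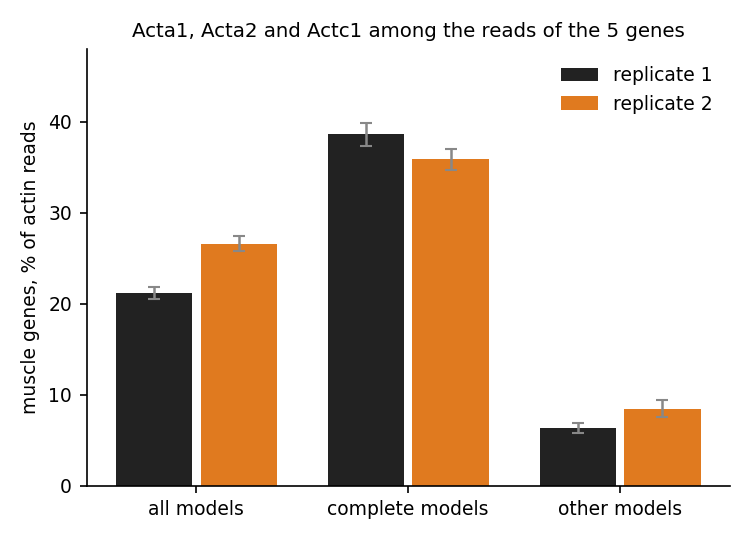
Reads of Acta1, Acta2 and Actc1 as a share of the reads of the 5 actin genes (vertical axis, %, from 0), for replicate 1 (black) and replicate 2 (orange) on all, complete and other models, with Wilson 95% intervals that cover counting error only. Replicate 1 is lower on all models and on other models, and higher on complete models.

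On complete models each gene used essentially 1 annotated transcript. For Actb these models held only 9.69% of the gene's reads in replicate 1 and 16.7% in replicate 2. Among complete-model reads Actb-201 had 624 of 636 in replicate 1 and 556 of 570 in replicate 2, or 98.1% and 97.5%. Actg1-202 had 98.3% and 97.9% and Acta2-201 98.4% and 98.6%. Acta1-201 had 98.1% and 98.03%, and Actc1-201 94.9% (90.5 to 97.3) and 98.3% (95.2 to 99.4). No member's share differed between the libraries, with an adjusted p of 1 for each (Fisher's exact test) and none with an unadjusted p under 0.05. Over the 4262 genes tested 0.0704% were called, and the median share of the main transcript was 89.2% in replicate 1 and 89.5% in replicate 2. Only 3 other annotated transcripts had reads. Actg1-204, a protein-coding transcript that starts at the start codon's position, 120348091, had 21 and 33. Actg1-206, annotated as a target of nonsense-mediated decay, had 1 and 2, and the retained-intron transcript Actb-205 had 1 and 1.

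ISM models held 754 actin reads in replicate 1 and 511 in replicate 2, nearly all on models that keep the 3′ exons and lack 5′ ones. In Acta2 the most read of them lacked only the first exon and had 113 and 112 reads. The model with only the last 2 exons had 100 and 32 reads, the one with the last 3 had 47 and 12, and the one with 7 exons had 31 and 21. A 4-exon Acta2 chain had 25 and 17 reads, and its model in replicate 1 read through 2 further introns upstream. In Actg1 a model with the last 3 exons had 117 and 93 reads. Another, which starts where Actg1-204 does and keeps 1 intron unspliced, had 52 and 59, and a 2-exon model with 1 intron unspliced had 31 and 27. In Actb the largest such model had 3 exons and 54 and 19 reads, and the next had 5 exons with 22 and 11, and 2 exons with 12 and 8. In Acta1 the model without the first exon had 17 and 18 reads, the one with 2 exons 12 and 6, and the one with 4 exons 7 and 6. In Actc1 the model without the first exon had 9 and 14 reads, the one with 2 exons 9 and 1, and the one with 5 exons 4 and 4.

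Unannotated complete models were many and thinly read. NIC and NNC models of the 5 genes held 86 reads in replicate 1 and 96 in replicate 2. By reads the most common change was a splice site moved by at most 10 bases, on 22 models with 44 reads in replicate 1 and 17 models with 55 reads in replicate 2. Models grouped as moved by more than 10 bases numbered 26 with 27 reads and 16 with 16 reads. Some of that group had a smaller shift in a model that also differed otherwise. Most of the moves in the first group shifted a donor, the 5′ end of an intron, 4 bases downstream, so that the exon gained 4 bases. Against the main transcripts such donors had 34 and 51 reads and were seen in all 5 genes. They lay at introns 2, 3, 4 and 5 of Actg1, introns 1, 2 and 5 of Acta2, introns 2, 3 and 4 of Actb and intron 4 of both Acta1 and Actc1. The best read was at intron 5 of Acta2, with 12 and 6 reads, and intron 4 of Actg1 had 5 and 11. A gain of 4 bases is no whole number of codons. The same shift was also the most common one in other genes. Of unannotated donors within 10 bases of an annotated one, 69.2% of 26 in replicate 1 and 85.7% of 21 in replicate 2 were 4 bases downstream in the actin genes, and in all other genes 62.3% of 7829 and 63.1% of 9469. Without a genome sequence of this build the bases at those sites were not examined here.

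Matched by exact chain of introns, the 5 genes had 136 unannotated structures of several exons, 101 in replicate 1 and 83 in replicate 2. Of these 48 were in both, 47.5% of those of replicate 1 and 57.8% of those of replicate 2. The same shares over the unannotated structures of all genes were not worked out. Whether the actin genes stand apart in this was therefore not tested. The 48 shared structures held 765 of 823 reads on unannotated structures in replicate 1 and 562 of 604 in replicate 2. ISM structures were shared most often, 28 of 49, against 8 of 21 NIC and 12 of 65 NNC structures. Here a structure takes its class from replicate 1 where it was seen there, and some had another class in replicate 2. By gene 9 of 19 were shared in Actb, 14 of 40 in Actg1, 7 of 15 in Acta1, 11 of 46 in Acta2 and 7 of 16 in Actc1. Where both ends also had to lie within 50 bases, 36 remained, and in Acta2 1.

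Actin has many processed pseudogenes, intronless copies close in sequence to their parents. By alignment to GENCODE M21 transcripts 19 annotated pseudogenes matched an actin gene over at least 500 bases at 80% identity or more, and 3 of them had reads. Gm12715 (chr4:103563402-103564529) had 186 reads in replicate 1 and 199 in replicate 2. Gm15725 had 4 and 1, and Gm8399 had 1 and 1. Gm12715 matches the coding part of Actg1 at 99.6% and differs from it at 4 of 1128 bases, T858C, G861T, T864C and G1002A, counted from the start codon with the base of Actg1 first. The 2 stretches that hold these differences are shown because reads of Actg1 and Gm12715 can be told apart in the coding part by them alone, with the differing bases in capitals.
Actg1, coding bases 843 to 873: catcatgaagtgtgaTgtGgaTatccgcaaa
Gm12715, same positions: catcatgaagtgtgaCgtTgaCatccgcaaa
Actg1, coding bases 987 to 1017: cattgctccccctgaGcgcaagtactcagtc
Gm12715, same positions: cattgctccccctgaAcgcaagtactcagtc
How the reads were divided between the 2 genes is therefore uncertain, and Gm12715 would add at most 4.94% and 4.77% to the Actg1 reads.

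By mean level, log2 ratio and complete-model share in each library, the 2 genes most alike to each member were picked among the 655 genes with at least 200 reads in each library. The distance is Euclidean, in units of SD over those genes. For Actg1 they were Pkm, pyruvate kinase (distance 0.389), and Vim, the intermediate filament vimentin (0.747). For Acta2 they were the ribosomal protein genes Rpl4 (0.338) and Rps4x (0.519), for Acta1 Wdr1, a cofactor of cofilin in filament disassembly (0.171), and Serbp1 (0.255), and for Actc1 the kinase gene Map2k2 (0.136) and Gm16286 (0.244). Actb had no near neighbour. Ptp4a2, a tyrosine phosphatase, came closest at a distance of 3.32, with 1033 and 696 CPM and 3.63% and 5.96% of its reads on complete models. Next was Cbx3, a heterochromatin protein, at 3.92, with 693 and 350 CPM and 15.1% and 26.9%. The log2 ratios were 0.57 for Ptp4a2 and 0.98 for Cbx3, against 0.84 for Actb.

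Genes that act on actin were read beside the members. Of 14 other actin and actin-related genes 11 had reads in both libraries and 10 were tested. The highest were Actr3, a subunit of the Arp2/3 complex, with 336 and 386 CPM, and Actg2, the enteric smooth-muscle gamma-actin, with 237 and 219 CPM. Actr1a and Actr1b, the actin-related proteins of dynactin, had 167 and 228 CPM and 131 and 177 CPM. Actr2, the partner of Actr3, named after its values were seen, was the 1 gene called, at 142 and 69.2 CPM (log2 ratio 1.03, adjusted p = 0.00104, exact binomial), where 2.6% of all genes tested were called higher in replicate 1. Actr2 had few reads on complete models, 28 of 110 in replicate 1 and 18 of 50 in replicate 2.

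Newly made actin is folded by prefoldin and the chaperonin CCT. All 15 genes of that list had reads in both libraries, with summed levels of 6094 and 7131 CPM. The highest were the CCT subunits Cct5 (1005 and 1175 CPM), Cct4 (697 and 883), Cct7 (630 and 891) and Tcp1 (583 and 688). None of the 15 was called higher in replicate 1 and 5 were called lower, which were Cct4, Cct5, Cct7 and, named after their values were seen, Cct3 and Cct8. Over all genes tested 1.39% were called lower in replicate 1, and 44.2% of those with at least 1000 reads were called in either direction. The median log2 ratio of the list was -0.23, against -0.06 over all 8940 genes tested.

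The modifying enzymes were much lower, with none of 5 tested called and a median log2 ratio of 0.21. Setd3, the histidine methyltransferase of actin, had 67.2 and 58.1 CPM, and Naa80, which acetylates the processed amino terminus, 21.98 and 9.69. Mical1 and Mical2, which oxidise actin, had 50.4 and 34.6 CPM and 10.3 and 9.69 CPM. Mical3 had 3 and 2 reads, and the arginyltransferase gene Ate1 had 11 and 11.

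Of 10 genes of thin filament assembly in striated muscle 7 had reads in both libraries, none of 4 tested was called, and the list summed to 51.7 and 56.7 CPM. Tmod1, a cap of the pointed end, had 12 and 8 reads, the filament ruler nebulin (Neb) 5 and 11, Lmod3, a nucleator, 9 and 4, and Fhod3, a formin, 6 and 6. Serum response factor (Srf), the transcription factor whose coactivators are held by actin monomers, had 6 reads in replicate 1 and 1 in replicate 2. No reads stood under the symbols of its coactivator genes Mkl1, Mkl2 and Myocd in either library. Genes were looked up by exact symbol, so a gene listed under another name would also show 0 reads. Only where the symbol is in use do 0 reads set a bound, of 3.88 and 4.15 CPM. The regulators Scai and Phactr4 had 4 and 0 reads and 3 and 3 reads. No symbol of this list had the 10 reads needed for a test.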

How the data were processed

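Long reads of total RNA from 1 group of 2 C2C12 libraries were used. Per the file headers, the deposited tables hold raw counts of reads per transcript model, made by the authors on mm10 against GENCODE M21, and list models with at least 1 read. The exon numbers, lengths and coordinates of other columns and of the paired annotations are also as deposited. Unannotated models name TALON as their source, and which aligner and filters were used is not given in the sources used here. Gene counts are sums over models. Depth, CPM floors and tests are given with the results. Wilson 95% intervals, exact binomial and Fisher tests (scipy 1.17.1) cover counting error only, and were tested on simulated data. TMM (edgeR 4.0.16) and DESeq2 1.42.0 size factors, read minimums, model classes and leaving out a library were alternatives. Pseudogenes were found with blastn 2.17.0 and coding parts aligned with Biopython 1.88. Named are the 5 genes, their annotated transcripts with reads, the 3 most read unannotated models of each and those with 10 reads in each library, 2 most alike genes each, and genes of up to 8-gene lists, otherwise the 4 highest. The members and lists were chosen with earlier results of these data known.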

Additional observations from a re-analysis of the deposited data

Results flagged for a closer look

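On the strand opposite to Actb, a single-exon Antisense model of an unannotated locus covers the same 540 bases as the gene's large Genomic model, chr5:142903115-142903654 on the plus strand. It held 3666 reads in replicate 1 and 2129 in replicate 2, and entered none of the comparisons above, because its reads are not assigned to Actb. A count of 0 would have allowed 3 reads. It was the largest of the 2071 and 1813 Antisense models of the libraries and held 22.8% and 20.2% of all Antisense reads. Actb models with an exon over the whole 540 bases, spliced ones included, held 6558 and 3412 reads, so that 35.9% (34.9 to 36.8) and 38.4% (37.2 to 39.7) of the reads in both orientations were antisense. The sources used here do not say whether the protocol keeps strand. The source of the antisense reads was not tested.

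A second Antisense model lay in Acta2, at chr19:34246065-34248043 with 11 reads in replicate 1 and chr19:34246055-34248040 with 15 in replicate 2. It covers exons 5 and 6 and intron sequence without splicing. The Genomic model of Acta2 with 9 and 9 reads covers nearly the same stretch on the opposite strand. Both models share the boundary of higher coordinate, 34248043 in replicate 1 and 34248040 in replicate 2. This is the 5′ boundary of the Genomic model and the 3′ boundary of the Antisense model.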

How the results depend on the processing

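The muscle share averaged 37.3% on complete models alone, 7.41% on the other models and 6.85% without Acta2, against 23.9% over all models, and leaving out a library gave 21.2% to 26.6%. Its difference between libraries was 2.76 points on complete models alone, against -5.42 over all models. The summed level of the 5 genes was 15631 CPM, and 14318 to 16944 CPM with 1 library left out. With complete-model reads alone and their own total as the denominator it was 9999 CPM, and the level of Actb was 936 CPM. With Known models alone 1 actin gene differed between the libraries in place of 2, since the log2 ratio of Actb was then 0.13 (adjusted p = 0.535, exact binomial). On complete models the log2 ratio of Actc1 changed sign to 0.034 under TMM and 0.030 under DESeq2 scaling, and was called under neither. With ISM models counted as complete, the share of Acta2 differed by 0.102 points and was not called, those of Acta1 and Actc1 differed by 0 points, since every read of these genes is then counted, and 2 members were called in place of 3. The cause of these shifts was not tested, beyond which models each setting counts. Shared structures numbered 36 with ends within 50 bases and 32 with at least 2 reads in each library, against 48. Without Acta2 the difference in muscle share on complete models was 1.10 points and did not pass (unadjusted p = 0.112, Fisher's exact test). The other tested values kept their direction and their side of the threshold. The other levels stayed within 1 SD. For leaving out a library this was fixed in advance, since each of 2 libraries lies within 1 SD of their mean. For complete models alone it rests on their own total as the denominator. Set against the annotated-gene totals, the complete-model levels of all 5 genes were more than 1 SD below those over all models. Acta2, for example, was at 2446 CPM against 2839 ± 103 (SD, n = 2). Actb was 8488 CPM in replicate 1 and 4731 CPM in replicate 2. Leaving out a library gives no test between libraries. The number of libraries and the 203 to 207 reads of Actc1 limit what can be seen of the rarer genes. No paired analysis was possible because there is 1 group, in which the replicate numbers pair nothing.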
